A study of Zea mays with 45 samples.

Results

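The nitrogen assimilation genes on these maize leaf arrays were 3 glutamine synthetases (GLN6, gs2 and gln4), asparagine synthetase (asn1) and nitrite reductase (NIR). They were found by matching the annotation of the probes, through the Entrez gene and its synonyms, to those names, whatever their values. The match gave 5 of the 329 genes named on the arrays and 7 probes in each of the 2 tables, since asn1 and NIR have 2 probes each. A NAC transcription factor gene that carries the synonym Asn1 was left out.

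The arrays compared leaf RNA of 6 maize lines, the inbred W23 (here with its b,pl stock) and the landraces Arrocillo, Cacahuacintle, Conico, Confite and Mishca. Supplemental UV-B was set against solar UV-B on 8 distinct arrays, and solar UV-B against no UV-B on 9. For these, field plants grew from about 14 days after sowing, or 7 days after germination, under plastic that either passed UV-B (cellulose acetate) or removed it (polyester), and the supplemental plants also stood under UV-B lamps. Arrocillo, Cacahuacintle and Conico were set against W23, with or without supplementary UV-B, on 12 arrays, and Confite and Mishca against W23 on 7, of which 4 were with and 3 without UV-B. The plants of these 7 came from the greenhouse, kept for 3 weeks without UV-B, and the treatment was 8 h under lamps. The labels give no sign that arrays of a group hold separate plants. The p-values rest on the spread between arrays of the same group, which may be technical, and on variances moderated over all probes. Those of the means over lines do not measure the spread between lines, so a called mean can hold lines that differ in size or side.

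Plants reduce nitrate to nitrite with nitrate reductase and nitrite to ammonium with nitrite reductase, which works in the plastid. Glutamine synthetase joins ammonium to glutamate, with isoforms in the cytosol and in the plastid, where GS2 is the usual name of the plastid form. Asparagine synthetase passes the amide nitrogen of glutamine on to asparagine, a storage and transport form of nitrogen that in many plants is made in the dark or when carbon is short.

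Values are log2 ratios of the RNAs on an array, averaged over those of the 3 spots of a probe that held a value. They are centred on the median of the array, so a value is relative to the middle probe of that array and is not a level. The first asn1 probe in Cacahuacintle under solar UV-B rested on 1 spot. So did the second NIR probe in Conico under solar UV-B and in Arrocillo and Cacahuacintle under supplemental UV-B. The labels do not settle which of the paired RNAs is the numerator, so values are given by their side, positive or negative. A probe was called when its mean over lines passed an adjusted p of 0.05 in a moderated linear model (limma, Benjamini-Hochberg over all probes tested). If each ratio is instead read as channel 1 over channel 2, which turns the sign on the arrays of the other labelling order, 0 of the member probes were called in either UV-B comparison. GLN6 and gln4 belong to 1 gene family with gln3, and cDNA probes can hybridise with close relatives, so their values are uncertain at the level of 1 gene.

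The arrays used had from 4.02% to 72.6% of spots blank, and the SD of the centred probes ran from 0.266 to 0.657, highest on the Mishca array under supplemental UV-B. The mesophyll and bundle sheath markers had 1 probe each, with mean log2 ratios of 0.30 and 0.08 under solar UV-B and -0.17 and -0.14 under supplemental UV-B. The mesophyll probe was called under solar UV-B. Of the seed list, 1 of 3 tested probes was called under solar UV-B and 1 of 4 under supplemental UV-B. Of the pollen list it was 1 of 1 and 1 of 2, and of the senescence and proteolysis list 2 of 5 in both. Over all probes 35% and 31.7% were called. The seed and pollen calls were negative under solar and positive under supplemental UV-B, and the senescence and proteolysis calls positive in both. In Arrocillo, Cacahuacintle and Conico against W23, where 25.6% of all probes were called, 2 of 4 seed probes were called positive and 1 negative. There 1 of 4 senescence and proteolysis probes was called negative. The part of these lists in the results was not tested, and in whole leaves fewer cells of a type and less RNA per cell cannot be told apart.

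Under solar UV-B, 4 of the 6 member probes tested were called, against 35% of all 4239 probes tested. NIR and gln4 were on the positive side, where 16.9% of all probes were called, and both asn1 probes on the negative side, where 18.1% were. GLN6 and gs2 did not pass the test. The solar arrays left a median of 2 residual degrees of freedom per probe, and the moderated variance drew on a prior of 3.84.

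The first NIR probe had log2 ratios of 0.17 and -0.06 in W23, 0.17 in Arrocillo, 0.25 in Cacahuacintle, 0.45 and 0.09 in Conico, 0.41 in Confite and 0.20 and 0.07 in Mishca. It was positive on 8 of 9 arrays, with 1 W23 array just below 0. Its 3 arrays with solar UV-B RNA in channel 1 lay from 0.17 to 0.45, and the 3 of the other order from -0.06 to 0.09. The channel term was not called for it (0.12, limma adjusted p = 0.1005). Its mean over lines was 0.22 (SE 0.04, limma adjusted p = 0.0141, n = 9 arrays). Without the first Conico array it was 0.20 with an adjusted p of 0.0652. The second NIR probe was measured on 2 arrays, at -0.26 and 0.27, and was not tested. Over 6 arrays of the UV-B comparisons and of Confite and Mishca that measured both NIR probes, their correlation was -0.96. It was 0.61 over 6 arrays of Arrocillo, Cacahuacintle and Conico against W23.

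The gln4 probe, for a glutamine synthetase of the cytosolic family, split by line. It had log2 ratios of -0.38 and 0.02 in W23, 0.48 in Arrocillo, 0.81 in Cacahuacintle, 0.54 and 0.57 in Conico, 0.14 in Confite and -0.15 and -0.08 in Mishca. The Arrocillo, Cacahuacintle and Conico arrays lay above all others, and W23 and Mishca lay around or below 0. The mean was 0.28 (SE 0.05, limma adjusted p = 0.0111). Cacahuacintle (0.81) and Conico (0.56) were called as single lines, where 7.17% and 4.67% of all probes were called. The test of the difference between lines missed the threshold (limma adjusted p = 0.0595). It called 0 members and 0.0236% of all probes, while 1751 probes had an unadjusted p under 0.05.

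The first asn1 probe had log2 ratios of -1.42 and -0.27 in W23, -0.38 in Arrocillo, -0.26 in Cacahuacintle, -0.01 and 0.18 in Conico, -0.69 in Confite and -0.23 and -0.33 in Mishca. It was negative on 8 of 9 arrays, and the first W23 array stood far below the rest. The mean was -0.40 (SE 0.10, limma adjusted p = 0.032), and it was -0.34 with an adjusted p of 0.0767 without Confite. Some arrays were deposited under both channel orders. With the order of their first label, the mean was -0.36 (limma adjusted p = 0.052). W23 was called as a single line, at -0.85, where 23.8% of all probes were called.

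The second asn1 probe had -0.05 and 0.11 in W23, -0.30 in Arrocillo, -0.62 in Cacahuacintle, -0.45 and -0.30 in Conico, -0.46 in Confite and -0.26 and 0.22 in Mishca. It was negative on 7 of 9 arrays, and its mean was -0.29 (SE 0.05, limma adjusted p = 0.00995). On values without centring that mean was -0.21 (limma adjusted p = 0.124). Both probes had means on the same side, but their order of lines differed: W23 was lowest for the first and Cacahuacintle for the second. Over the 21 arrays of this table that measured both, their correlation was 0.12, a description of arrays that share lines and RNAs.

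GLN6, the other glutamine synthetase of the cytosolic family, ranged from -0.32 to 0.44, with a mean of 0.11 (SE 0.04, limma adjusted p = 0.0601). Its 3 arrays with solar UV-B RNA in channel 1 lay from 0.09 to 0.44, and the 3 of the other order from -0.32 to 0.07. The channel term was called for it (0.19, limma adjusted p = 0.0257), as it was for 28.9% of all probes. The gs2 probe ranged from -0.20 to 0.29, with a mean of 0.01 (SE 0.04, limma adjusted p = 0.89).

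**Figure D1:**
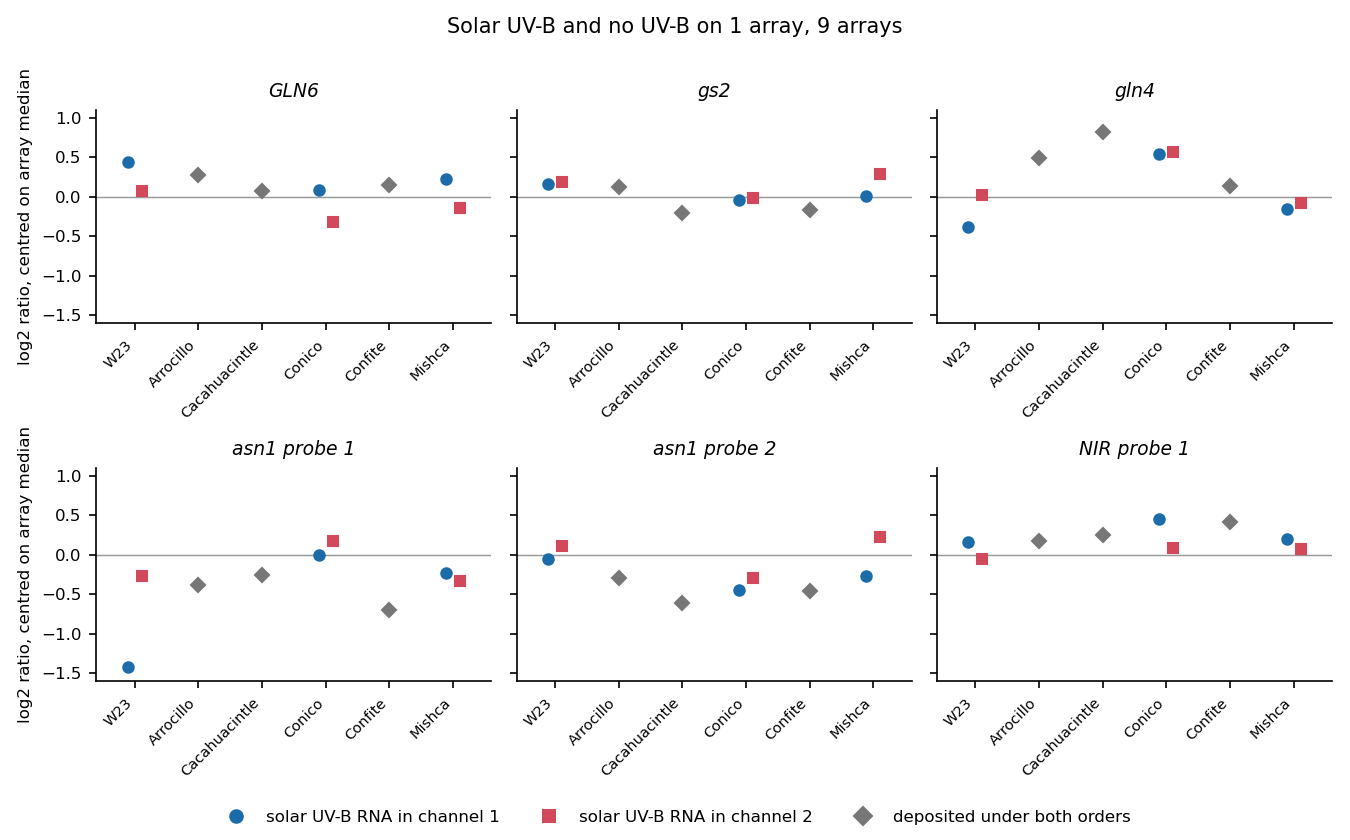
Log2 ratio (vertical axis, centred on the array median) of 6 member probes by line under solar UV-B, 1 point per array, with marker shape and colour for the channel order. NIR probe 1 lay above 0 on 8 of 9 arrays, asn1 probe 1 below 0 on 8 of 9, and gln4 was highest in Cacahuacintle at 0.81.

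Several of these calls rested on few arrays. In W23, Mishca and Conico, the lines with 2 distinct arrays, same-numbered arrays deviated together, with correlations from 0.48 to 0.88. Their numbers coincide with the channel orders, so number and channel order cannot be told apart, and the second Conico array has no number in its title. With the replicate number as a block in place of the channel term, 1 member was called: gln4, at 0.32 (limma adjusted p = 0.0366). Over W23, Conico and Mishca alone, the lines with distinct arrays of both orders, 0 members were called, with means of 0.15 for NIR, 0.09 for gln4, and -0.35 and -0.12 for the asn1 probes. Over all probes, the arrays of opposite order correlated at 0.44 in W23, 0.28 in Conico and -0.24 in Mishca. Of the 4294 probes measured on these 6 arrays, 15.3% turned side with the order on every array.

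Under supplemental UV-B, 3 of the 6 member probes tested were called, against 31.7% of all 4744 probes. GLN6 and gs2 were on the negative side on all 8 arrays (16.2% of all probes were called on that side), and the first asn1 probe had a positive mean (15.5%). These 8 arrays left 1 residual degree of freedom per probe, and the moderated variance drew on a prior of 16.9 degrees of freedom fitted over all probes. Without that moderation, or without the channel term, 0 members were called. Over all probes, the arrays of opposite order correlated at -0.11 in Confite and -0.07 in Conico. Of the 4765 probes measured on these 4 arrays, 31.3% turned side with the order on every array.

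GLN6 had log2 ratios of -0.27 in W23, -0.27 in Arrocillo, -0.71 in Cacahuacintle, -1.31 and -0.57 in Conico, -0.27 and -0.32 in Confite and -0.86 in Mishca. Conico, Mishca and Cacahuacintle lay lower than the other lines on every array, but the test of the difference between lines was not passed (limma adjusted p = 0.115). The mean was -0.56 (SE 0.08, limma adjusted p = 0.00018), a 1.47-fold ratio. Over Confite and Conico alone, which have distinct arrays of both orders, it was -0.62 (limma adjusted p = 0.00316). Read as channel 1 over channel 2, it was 0.0035.

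The gs2 probe had 0.00 in W23, -0.26 in Arrocillo, -0.32 in Cacahuacintle, -0.35 and -0.42 in Conico, -0.09 and -0.43 in Confite and -1.03 in Mishca. Mishca stood apart, and W23 was next to 0, but the test of the difference between lines was not passed (limma adjusted p = 0.103). The mean was -0.37 (SE 0.07, limma adjusted p = 0.00141), and it was -0.24 with an adjusted p of 0.0467 without Mishca. Over Confite and Conico it was -0.32 with an adjusted p of 0.0758.

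The first asn1 probe had 0.53 in W23, -0.07 in Arrocillo, 0.50 in Cacahuacintle, 0.13 and 0.28 in Conico, -0.47 and 0.08 in Confite and 0.89 in Mishca. It was positive on 6 of 8 arrays, with a mean of 0.31 (SE 0.08, limma adjusted p = 0.00531). Without Mishca the mean was 0.19 with an adjusted p of 0.106, and over Confite and Conico it was 0.00. With arrays deposited under both channel orders given their second label, it was 0.19 (limma adjusted p = 0.157). With probes averaged by gene it was 0.15 (limma adjusted p = 0.134). The second asn1 probe ranged from -0.52 to 0.56, with a mean of -0.01, and its channel term was called (0.33, limma adjusted p = 0.024), where 24% of all probes had one.

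The remaining probes had means near 0. The first NIR probe had a mean of -0.05 (SE 0.07), with 7 of 8 arrays negative. The gln4 probe had a mean of 0.10 (SE 0.07), from -0.49 on a Conico array to 0.70 in Mishca. Its mean was -0.02 without Mishca and 0.21 without Conico. Over Confite and Conico alone it was -0.18, and with sections of the arrays centred as well it was called on the negative side, at -0.24 (limma adjusted p = 0.0268). The second NIR probe was measured on 2 arrays, at 0.23 and 0.29.

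**Figure D2:**
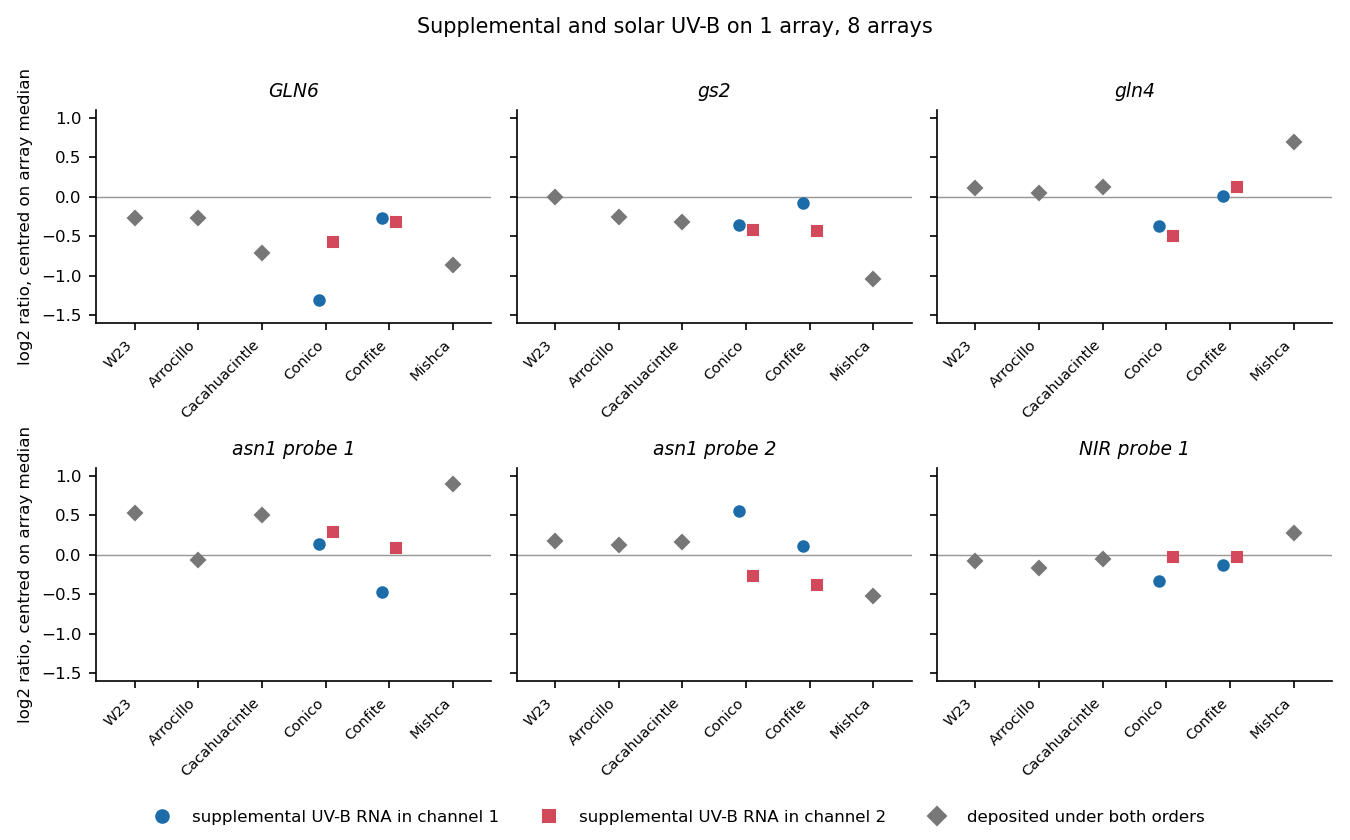
Log2 ratio (vertical axis, centred on the array median) of 6 member probes by line under supplemental UV-B, 1 point per array, with marker shape and colour for the channel order. GLN6 lay below 0 on 8 of 8 arrays, from -1.31 to -0.27, and Mishca was the extreme line for gs2, gln4 and asn1 probe 1.

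The lines differed for 2 members under supplemental UV-B, the first asn1 probe (limma adjusted p = 0.0239) and gln4 (0.0377), where 24.6% of all probes were called. Mishca, with 1 distinct array, was called as a single line for 5 member probes of 4 genes and for 41.5% of all probes. Its values were -0.86 for GLN6, -1.03 for gs2, 0.70 for gln4, and 0.89 and -0.52 for the asn1 probes. Without Mishca, 0 members differed between lines. GLN6 was also called in Conico, at -0.94, where 4.24% of all probes were called.

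The UV-B comparisons share the solar UV-B condition, which was tested in one and the reference in the other, so their values can only stand side by side. GLN6 had -0.56 under supplemental and 0.11 under solar UV-B, gs2 -0.37 and 0.01, and the asn1 probes 0.31 and -0.40 for the first and -0.01 and -0.29 for the second. For NIR the means were -0.05 and 0.22, and for gln4 0.10 and 0.28.

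**Figure D3:**
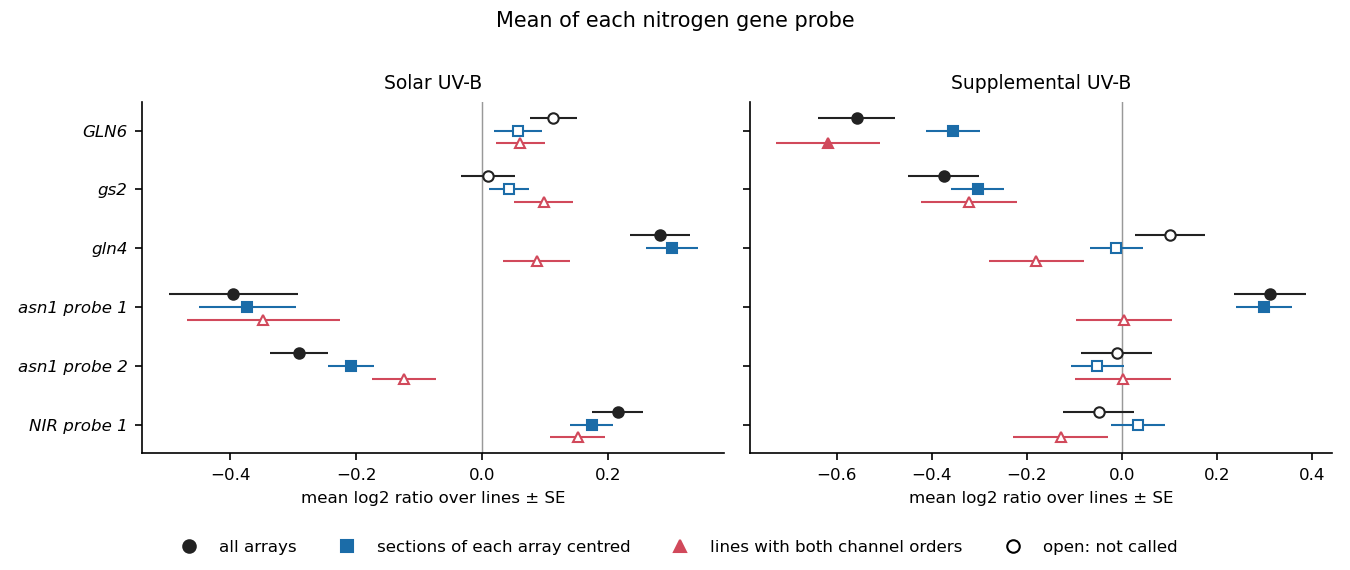
Mean log2 ratio over lines (horizontal axis, bars 1 SE) of 6 member probes under solar and supplemental UV-B, for all arrays, for arrays with each of 16 sections of consecutive spots centred on its median, and for the lines with both channel orders. Filled markers passed an adjusted p of 0.05; with all arrays 4 solar and 3 supplemental means are filled, and with only the lines of both orders GLN6 under supplemental UV-B is the single filled one.

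In the comparison of Arrocillo, Cacahuacintle and Conico with W23, 0 of the 5 member probes tested were called, against 25.6% of all 5353 probes. The gs2 probe came nearest the threshold. It was positive on 9 of 12 arrays, from -0.15 to 0.52, with a mean of 0.17 (SE 0.07, limma adjusted p = 0.0886). The second asn1 probe was positive on 11 of 12 arrays, with a mean of 0.13 (SE 0.07, limma adjusted p = 0.169). GLN6 had a mean of 0.02 (SE 0.06) and NIR of -0.03 (SE 0.07).

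The first asn1 probe followed the channel order on all 12 arrays. The 6 arrays with landrace RNA in channel 1 had log2 ratios from -0.98 to -0.22, and the 6 with landrace RNA in channel 2 from 0.10 to 0.94, with no overlap. Its mean was -0.03 (SE 0.09), while its channel term was -0.45 (SE 0.09, limma adjusted p = 0.0124). A channel term was called for 13.9% of all probes, and 3.44% of the 5123 probes measured on all 12 arrays turned side with the order on every array. Read as channel 1 over channel 2, it was the 1 member called. The second asn1 probe did not follow the order, with 5 of 6 arrays positive in the first order and 6 of 6 in the second.

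**Figure D4:**
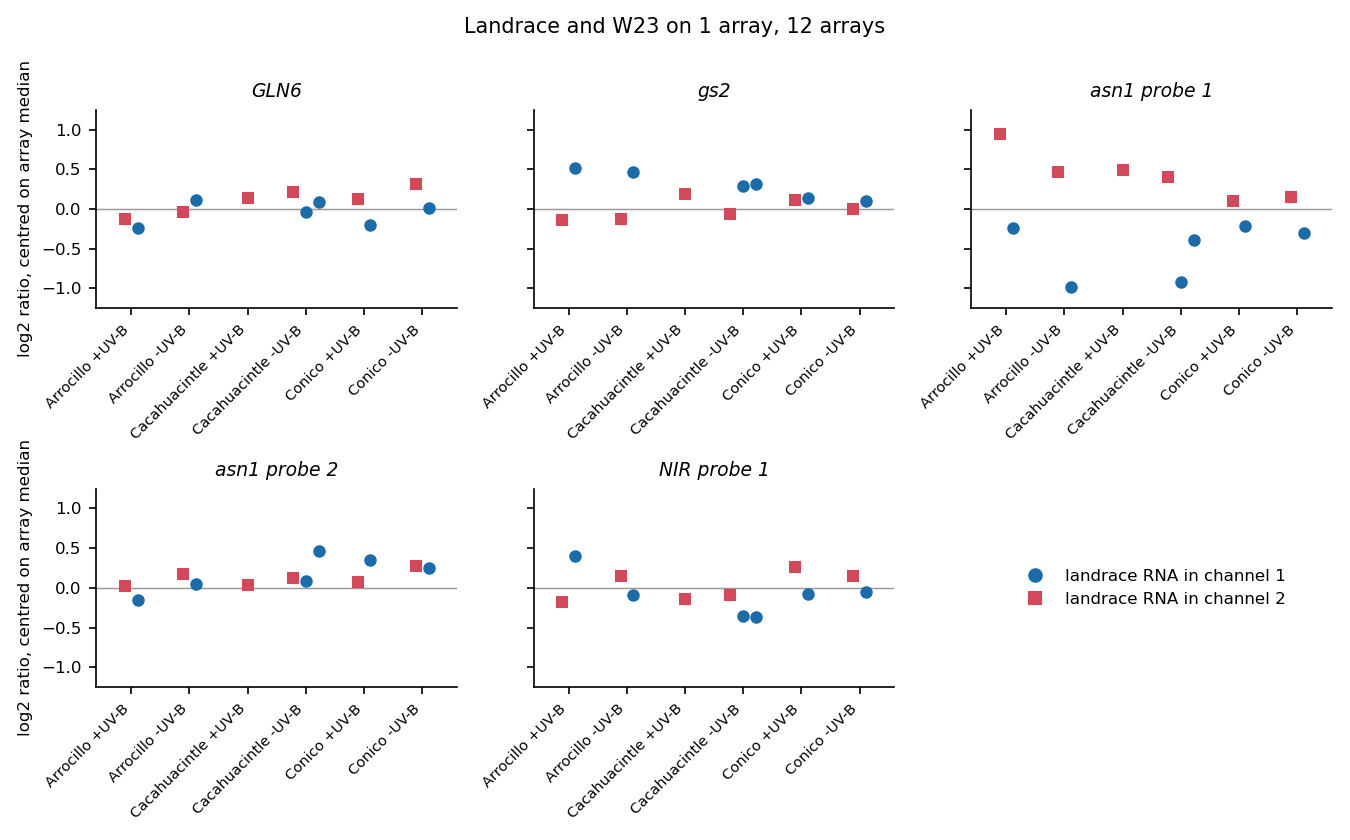
Log2 ratio (vertical axis, centred on the array median) of 5 member probes on the 12 arrays of 3 landraces against W23, with and without UV-B, marked by channel order. For asn1 probe 1 the arrays with landrace RNA in channel 1 lie from -0.98 to -0.22 and those with it in channel 2 from 0.10 to 0.94.

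Among the members, no contrast of the arrays with UV-B against those without passed the test: 0 members were called by limma after adjustment, 0 had an unadjusted p under 0.05, and 0% of all probes were called, with 257 at an unadjusted p under 0.05. The differences, with minus without UV-B, were 0.27 for the first asn1 probe, 0.11 for gs2, 0.06 for NIR, -0.14 for the second asn1 probe and -0.16 for GLN6. Cacahuacintle has 1 array with and 3 without UV-B by its titles. The gln4 and second NIR probes were measured on 6 of the 12 arrays and were not tested. They ranged from -0.38 to 0.62 and from -0.71 to 0.32.

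For Confite and Mishca against W23, 2 member probes could be tested and 0 were called, against 1.63% of all 2089 probes. GLN6 had a mean of 0.02 (SE 0.20) and the second NIR probe of 0.31 (SE 0.20, limma adjusted p = 0.921). Of the members on too few arrays to test, gs2 was negative on all 5 arrays that measured it, from -0.46 to -0.19, and the first NIR probe was positive on all 3, from 0.12 to 0.44. The others went both ways: 3 positive and 3 negative arrays for the first asn1 probe, 2 and 2 for the second, and 2 and 2 for gln4, from -0.18 to 1.07.

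Other genes of the pathway on the arrays were 8, of which gln3 and nitrate reductase (NNR1) came from a list of names and 6 were added once the names on the arrays, but not their values, were seen. Of these, 1 of 8 was called under solar UV-B, 2 of 8 under supplemental UV-B, 3 of 6 tested in Arrocillo, Cacahuacintle and Conico against W23, and 0 of 4 in Confite and Mishca. Over all probes the shares were 35%, 31.7%, 25.6% and 1.63%, and those of the list were 12.5%, 25%, 50% and 0%. The list is too short for these shares to be set apart from those over all probes, and the differences were not tested. Without Mishca neither supplemental call remained. The median mean log2 ratios of the list were 0.05, 0.02, 0.07 and -0.24.

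L-FNRI, a leaf ferredoxin-NADP reductase, had means of 0.19 (limma adjusted p = 0.0185) under solar and -0.23 (0.0269) under supplemental UV-B, and 0.38 (0.0347) in the 3 landraces. It was positive on 6 of 9, negative on 6 of 8 and positive on 11 of 12 arrays in that order. Without Mishca its supplemental mean was -0.18 with an adjusted p of 0.12. Under solar UV-B it also carried a called channel term (0.25, limma adjusted p = 0.019). There the 3 arrays with solar UV-B RNA in channel 1 were positive and the 3 of the other order negative. Under supplemental UV-B the 2 arrays of the first order were negative and the 2 of the other positive. So turned 15.3% and 31.3% of all probes measured on these arrays. Lines with both orders had coefficients of -0.065 (W23), -0.0919 (Mishca) and -0.0072 (Conico) under solar UV-B. Under supplemental UV-B they were -0.0015 (Confite) and 0.0143 (Conico). pOMT1, a plastid 2-oxoglutarate and malate translocator, which carries carbon skeletons for ammonium assimilation, had a mean of -0.24 (limma adjusted p = 0.0195) under supplemental UV-B, with 4 arrays positive and 4 negative. Without Mishca, at -1.24, that mean was -0.04 with an adjusted p of 0.751. In the landraces pOMT1 had a mean of 0.45 (limma adjusted p = 0.00109), with 10 of 12 arrays positive. Its channel term was called in both, at 0.37 (limma adjusted p = 0.0124) under supplemental UV-B and 0.28 (0.0335) in the landraces. NNR1 had -0.23 (limma adjusted p = 0.021) in the landraces, negative on 11 of 12 arrays, and a mean of 0.21 (SE 0.09, adjusted p = 0.0647) under supplemental UV-B, with 4 arrays positive and 4 negative. Mishca was at 1.204, and without it the mean was 0.01.

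By correlation over the arrays of the table that holds the UV-B comparisons and Confite and Mishca, the named probe most like GLN6 was that of NRH2b (r = 0.90, 22 arrays), and the most like the first asn1 probe was dbf1 (r = 0.94, 23 arrays). For gs2 it was PER1 (r = 0.88, 22 arrays), for NIR ys1 (r = 0.91, 18 arrays), for the second asn1 probe rmr7 (r = 0.80, 19 arrays) and for gln4 NNR1 (r = 0.71, 21 arrays). On the table of the 12 arrays of Arrocillo, Cacahuacintle and Conico other probes came first: PP1 for the first asn1 probe (r = 0.98), Zea m 3 for NIR (0.85), CesA-8 for gs2 (0.84), DBB11 for GLN6 (0.80) and ae1 for the second asn1 probe (0.71). Among members, GLN6 and gs2 had r = 0.58 over 22 arrays of the UV-B table and -0.23 over the 12 arrays of the landrace table. The first asn1 probe and gs2 had r = -0.65 over 21 arrays and -0.78 over 12. These are descriptions of arrays that share RNAs, lines and channel orders.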

How the data were processed

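The deposited tables hold log2 ratios per spot, 1 column per array, with unstated channel scaling and direction. Per the labels and the design text, leaf RNA was hybridised in 2 channels, and the authors fitted analysis of variance models to log2 intensities and set a threshold on weak spots. Image analysis is not given in the sources used here. Of 45 columns, 8 repeated another up to a constant (SD within 0.01) and were counted once, and 1 W23 column close to the mean of the other W23 arrays was left out, leaving 36. The columns of a repeated pair carried opposite channel labels with values on the same side, so these arrays entered with no channel order. They were Confite, Arrocillo and Cacahuacintle under solar UV-B, and W23, Mishca, Arrocillo and Cacahuacintle under supplemental UV-B. The Mishca array without UV-B against W23 was another. The first and second label orders used the label of the first or second column instead. Spots were averaged per probe and arrays centred on their medians. A probe needed values on 75% or more of a comparison's arrays, with 1 or more in every group, and then entered a linear model with a coefficient per line, or line and treatment, and a channel term, with variances moderated by limma 3.58.1 in R 4.3.3, two-sided. The number of arrays limits the precision. Where a line had 1 distinct array, it borrowed the spread of the others. Tables were tested separately.

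The code was tested on simulated data with the arrays' own missing values. Variances were drawn from the distribution fitted over all probes, after a first simulation that redrew the raw variance estimates had failed under supplemental UV-B: one draw of it recovered no planted change there, and another none of the smaller and a minority of the larger ones. It recovered a minority for Confite and Mishca. These comparisons have 1 or 2 residual degrees of freedom, and their calls depend on the moderation.

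The members, the lists and the tests were chosen with earlier results of these data known. Genes named are the members whatever their values, the pathway list where called or where a result turned on it, and the named probe with the highest correlation to a member. Channel orders came from the channel labels and numbers from the titles, or from accession order where a title has none, as for the second solar Conico array. In the solar comparison all 3 pairs of groups deviated together, and so did the 1 supplemental pair (r = 0.66). In Arrocillo, Cacahuacintle and Conico against W23, 9 of 10 pairs correlated above 0.1, from -0.11 to 0.75 over all pairs. In Confite and Mishca 2 of 3 did, from -0.25 to 0.26. The numbers are not shown to pair samples. The blocked value stands beside the solar result because it ends calls there.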

Additional observations from a re-analysis of the deposited data

Results flagged for a closer look

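4 differences between lines passed the test under supplemental UV-B, by the moderated F test of limma with adjustment over all probes: asn1 probe 1 (adjusted p = 0.02386), gln4 (0.03775), NNR1 (0.0062) and pOMT1 (0.008444). In each, Mishca was an extreme line, with log2 ratios of 0.89, 0.70, 1.204 and -1.24 on its 1 distinct array, whose SD over probes of 0.657 was the highest of the arrays used. Mishca was called for 41.5% of all probes. Without Mishca, in a fit added after seeing the data, the adjusted p-values were 0.21 for asn1 probe 1, 0.375 for gln4, 0.305 for NNR1 and 0.645 for pOMT1.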

How the results depend on the processing

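The count of members called under solar UV-B (4) was 0 with no channel term, with no moderation, with ratios read as channel 1 over channel 2 and with only the lines of both channel orders. It was 1 with sections centred and only those lines (the asn1 probe 1 mean was -0.35), and 1 with the replicate block. It ran from 3 to 5 without single arrays or lines. Without centring asn1 probe 2 missed the threshold, and with the first label order asn1 probe 1 did. The solar line difference (0) was 1 with scaled arrays, sections centred, the second label order, or sections centred and lines of both orders, 2 with the third W23 array kept, 3 with repeated columns counted, 4 with array weights, and from 0 to 5 without single arrays or lines, reaching 5 without the second W23 array.

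The supplemental count (3) was 0 with no channel term, no moderation or the channel reading, 1 with only the lines of both orders, and 2 to 3 without single arrays or lines. Its line difference (2) was 4 without centring or with repeated columns counted, 1 with probes averaged by gene, the first label order or the replicate block, 0 with scaled arrays, no channel term, no moderation, the second label order, the channel reading or lines of both orders, and 0 to 2 without single arrays or lines. In Arrocillo, Cacahuacintle and Conico against W23 the count (0) was 1 under the channel reading and 0 to 1 without single arrays, reaching 1 without the first Arrocillo array with UV-B. Supplemental means that turned side were GLN6 at 0.0035 (channel reading) and, with sections centred and lines of both orders, asn1 probe 1 at -0.0296 and gln4 at -0.24, which passed the test there (adjusted p = 0.0268). The replicate block changed no other count. Changes of side between values that both missed the threshold were not counted. The causes were not tested, apart from the smaller number of lines where lines were left out. Leaving out a Confite or Conico array or line under supplemental UV-B left no residual degree of freedom and no test. Blank spots limit gln4 and the second NIR probe, and no spot intensities were used, so signal over background is unknown. Fits with centred sections and only lines of both orders were added after seeing the data.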
